A study of Mus musculus with 9 samples.

Results

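The genes described here are developmental transcription factors outside the Hox clusters that are classical targets of Polycomb repression. The 53 genes were taken as a named list, and 51 of them were measured by a probe set with exactly 1 gene symbol, among 22180 genes measured in this way. A gene with more than 1 such probe set is represented by the brightest on average. Dlx1 and Msx1 share their probe sets with another symbol and were left out. No histone mark or Polycomb binding was measured in these arrays, so the name of the group rests on general knowledge and was not checked in these cells.

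Polycomb repressive complex 2, whose catalytic subunit is Ezh2 or Ezh1, places methyl groups on a lysine of histone H3, and Polycomb repressive complex 1 binds this mark and compacts the chromatin. In blood stem cells the complexes are known to hold genes of other tissues silent. The master regulators of neural, endodermal, cardiac, limb and kidney fates are the best known of these genes, and their start sites tend to lie in stretches of DNA rich in CG dinucleotides. The question addressed here was whether any of them gave more signal once Ezh2 had been deleted.

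Long-term haematopoietic stem cells (lineage marker-, Sca-1+, c-kit+, CD34-, CD135-) had been sorted from marrow of C57BL/6 mice and measured on 9 arrays, 3 biological replicates in each of 3 genotypes. The WT group was the control, Jak2VF was MxCre Jak2VF/+, which carries 1 mutant allele of the cytokine receptor kinase gene Jak2, and Jak2VF_Ezh2KO was MxCre Jak2VF/+ EZH2-/-. All 3 groups had been given pI-pC from 4 weeks after birth, as 5 doses of 300 µg each, and marrow was taken 12 weeks later. MxCre is an interferon-inducible Cre that pI-pC switches on, active in blood cells and also in other tissues. The labels do not say whether the controls carried MxCre, and Ezh2 was deleted here only together with the mutant Jak2 allele.

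Array medians lay between 5.51 and 5.68 (log2). Ezh2 itself read 8.48, 8.81 and 8.69 (WT), 8.87, 9.09 and 8.78 (Jak2VF), then 8.47, 8.08 and 8.42 (Jak2VF_Ezh2KO). All 3 Jak2VF_Ezh2KO arrays lay below the other 6, but the difference from Jak2VF of -0.59 did not pass (limma, adjusted p = 0.411), and whether its probes lie within the deleted exons is not known from the labels. Replicates 1 and 2 of Jak2VF_Ezh2KO carried signal of Y-linked genes, at means of 6.66 and 6.81 over 3 genes against 3.64 to 4.08 in the other arrays, so sex differs between these 2 arrays and the rest. Of the stem cell markers, 7 of 8 measured lay above the 95th percentile of the receptor genes described next. Of the sort markers, Cd34 RNA had a mean of 10.27 over the arrays, although the cells had been sorted without CD34 protein. The markers Cd34, Flt3 and Cd48 all lay above that percentile, with a lowest mean of 7.54. Their median in single arrays ran from 7.30 to 8.82 in WT, 9.04 to 9.18 in Jak2VF and 8.56 to 8.87 in Jak2VF_Ezh2KO.

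The developmental factors gave dim signals in all genotypes. Their means over the 9 arrays ran from 3.61 for Sox2 to 6.28 for Dlx2, with a median of 5.13, against 5.76 for all genes and 7.96 for 20 transcription factors that blood stem cells use, such as Gata2, Runx1 and Meis1. Of the 51 genes, 3 lay above 6.10, the 95th percentile of the means of 1409 olfactory and vomeronasal receptor genes, whose median was 3.95. These were Dlx2, Neurog2 and Sox9. Among all genes, 41.9% lay above that level. Probe sets bind with different strength, so the signal does not order transcripts of different genes, and the deposited table used here holds no detection calls. In bulk RNA, fewer cells of a type and less RNA per cell cannot be told apart. A fold change measured near the background of an array also understates the change in RNA.

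**Figure D1:**
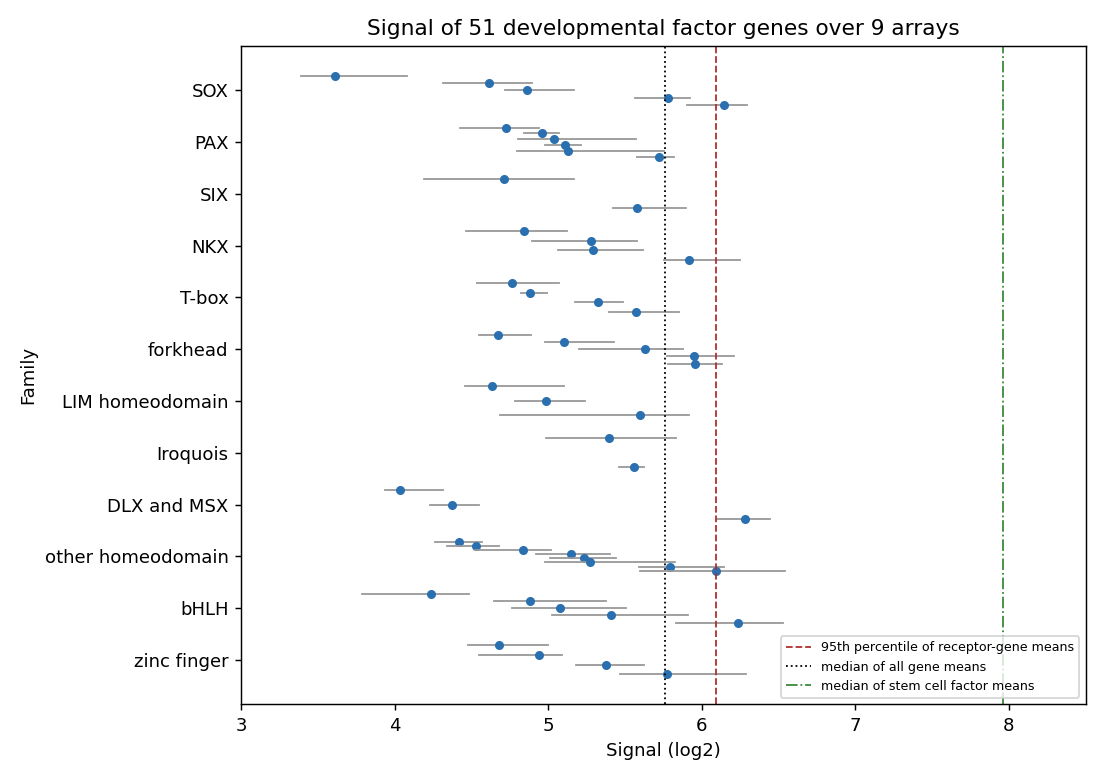
Signal (log2) of each of the 51 genes by family, with the mean over 9 arrays as a point and the lowest to highest array as a line. Vertical lines mark the 95th percentile of the receptor-gene means at 6.10, the median of all gene means at 5.76 and the median of stem cell transcription factors at 7.96, to the right of every gene shown.

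None of the 51 genes passed in Jak2VF_Ezh2KO against Jak2VF at an adjusted p under 0.05 (limma, 0 of 51, 0 of 51 at an unadjusted p under 0.05 in either direction, and 0 of 51 with ordinary least squares). Over all genes 10 passed in limma, or 0.0451%, with 0.0316% on the higher side. With ordinary least squares 0 of all genes passed, so that the 0 of 51 in that fit was fixed. At an unadjusted p under 0.05, 2.91% of all genes were higher and 3.99% lower. The differences ran from -0.27 for Gata6 to 0.30 for Cdx2, 23 of them positive, with a median of -0.017 against -0.040 for all genes. A difference over 0.5 was found in 0 of 51 genes and in 2.84% of all genes, and one under -0.5 in 0 of 51 and in 2.92%. The genotypes did not overlap for En1, which lay higher in all 3 Jak2VF_Ezh2KO arrays, and for Sox1, which lay lower, that is 1 gene each way, where 4.18% and 6.94% of all genes did so.

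Against WT, 0 of 51 genes passed as well (limma, where 0.0225% of all genes passed, 0.018% on the higher side). With ordinary least squares 0 of 51 passed, but so did 0 of all genes. Lhx2 and Nkx6-1 were higher at an unadjusted p under 0.05, 2 of 51 or 3.92%, against 4.54% of all genes. On the lower side were 0 of 51, against 4.06%. The share of higher genes grew with signal. Lhx2 and Nkx6-1 lie among the 7394 genes with the lowest means, where 7.41% of 27 members were higher, against 1.68%. There 0 of 27 were lower, against 5.3%. Of the 7393 genes next in mean 3.57% were higher, with 0 of 24 members, and of the 7393 brightest 8.39%. The larger share among dim members rests on 2 genes. No member differed by more than 0.5 either way, as 3.92% of all genes did upward and 3.69% downward. The differences ran from -0.30 for Neurod1 to 0.33 for Nkx6-1, 22 of them positive, with a median of -0.030 against -0.018 for all genes. The 3 Jak2VF_Ezh2KO arrays lay above all WT arrays for 2 genes and below them for 4, where 6.28% and 6.62% of all genes did so. These genes are all among the 27 dim members, at 7.41% and 14.8%, against 2.77% and 7.82% of the 7394 genes with the lowest means. Both comparisons share the Jak2VF_Ezh2KO arrays. Members higher at an unadjusted p under 0.05 in both numbered 0 of 51, and 1.54% of all genes met that rule. In no member did the 3 Jak2VF_Ezh2KO arrays lie above all 6 others, as they did for 2.15% of all genes. Set against the average of the other genotypes, 0 of 51 passed in limma (0.0541% of all genes) and 0 of 51 with ordinary least squares (0 of all genes). In limma 0 of 51 had an unadjusted p under 0.05, against 4.19% higher and 4.48% lower over all genes. Differences beyond 0.5 there numbered 0 of 51 each way (2.67% and 2.48% of all genes), and Sox1 alone had its 3 Jak2VF_Ezh2KO arrays below the other 6 (2.4% of all genes).

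The interval of each difference bounds the rise in signal, rather than in RNA, that is compatible with these values. It does not give the smallest rise that the adjusted threshold would have called, which can be larger. Exactly equal values between arrays, described at the end, can narrow the spread that enters the interval. For Jak2VF_Ezh2KO against Jak2VF the standard errors ran from 0.11 to 0.28 with a median of 0.14. The upper end of the 95% interval lay below 1 log2 unit for 51 of 51 genes and below 0.5 for 44 of 51. It was highest for Isl1, at 0.83 or 1.77-fold, and its median was 0.32 or 1.25-fold. Against WT the highest upper end was 0.78 for Pax2 and 45 of 51 lay below 0.5. These bounds do not hold once sex is fitted, where the genotype difference rests on Jak2VF_Ezh2KO replicate 3 alone. The median standard error was then 0.21, and 30 of 51 upper ends against Jak2VF and 29 of 51 against WT lay below 0.5. In each comparison 50 of 51 lay below 1, the exception being Pax2 at 1.22 and 1.35, and Pax2 was also the 1 gene with a difference over 0.5, which 4.81% and 6.59% of all genes had in that fit. Each interval is for 1 gene, is not adjusted over the 51, and covers the spread between these arrays, not the understatement of folds near background.

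**Figure D2:**
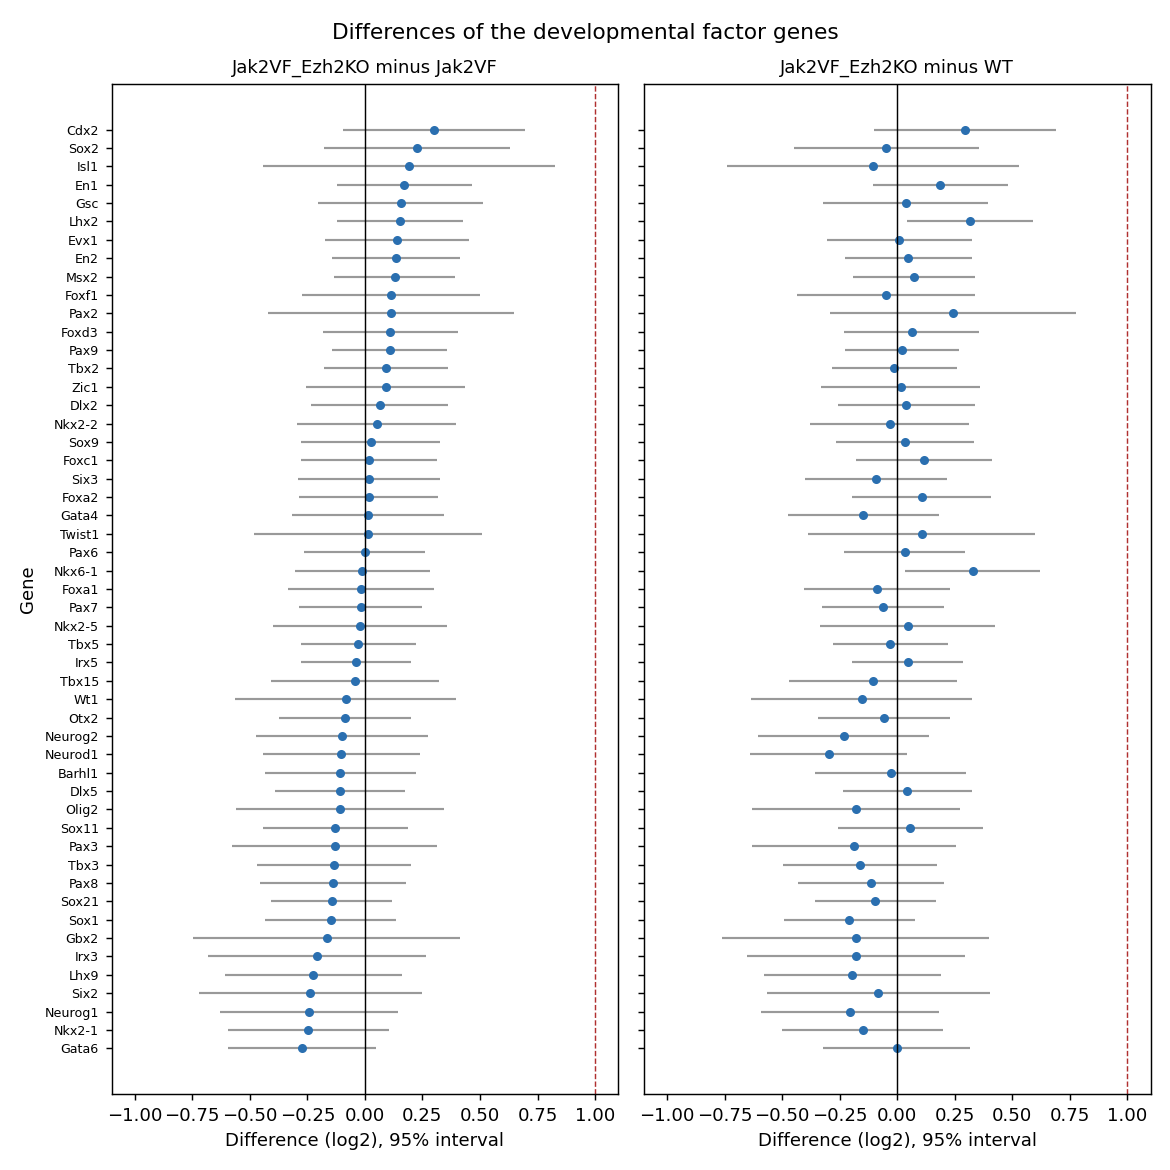
Difference in log2 signal (horizontal axis) with its 95% interval for each of the 51 genes, ordered by Jak2VF_Ezh2KO minus Jak2VF (left) and shown in the same order for Jak2VF_Ezh2KO minus WT (right). The dashed line marks a doubling, which every interval falls short of in this fit without sex (with sex fitted, that of Pax2 crosses it). Only Lhx2 and Nkx6-1, both against WT, have an interval that leaves out 0, and with sex fitted both intervals include 0.

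The SOX genes encode factors with a high-mobility-group domain, of which Sox2 and Sox1 mark neural progenitors, Sox9 governs cartilage and gonad, and Sox11 and Sox21 act in neurogenesis. Sox2 read 3.54, 3.54 and 4.08 (WT), 3.47, 3.39 and 3.48 (Jak2VF), then 3.40, 3.83 and 3.79 (Jak2VF_Ezh2KO). Its 3 Jak2VF arrays lay below all WT arrays and overlapped with Jak2VF_Ezh2KO, with a difference of 0.23 (interval -0.18 to 0.63) from Jak2VF and -0.048 from WT. Sox1 read 5.17, 4.90 and 4.80 (WT), 4.88, 4.88 and 4.92 (Jak2VF), then 4.77, 4.74 and 4.72 (Jak2VF_Ezh2KO), so that its Jak2VF_Ezh2KO arrays were the lowest of the 9, with differences of -0.15 and -0.21 (adjusted p = 0.861 and 0.679). The latter was -0.10 without WT replicate 1. Sox9, among the brightest of the group, read 5.90, 6.30 and 6.20 (WT), 6.15, 6.04 and 6.23 (Jak2VF), then 6.20, 6.12 and 6.18 (Jak2VF_Ezh2KO), with all groups overlapping. Sox11 differed by -0.13 from Jak2VF and 0.057 from WT, and Sox21 by -0.14 and -0.10. The other probe set of Sox21 gave -0.093 and -0.12.

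PAX genes encode paired-domain factors of kidney, muscle, eye and thyroid. Pax2, which specifies the kidney and the midbrain border, read 5.24, 4.98 and 4.79 (WT), 5.02, 4.90 and 5.48 (Jak2VF), then 4.97, 5.02 and 5.76 (Jak2VF_Ezh2KO), with the highest value in Jak2VF_Ezh2KO replicate 3 and the other 2 arrays of that group below the Jak2VF mean. Its difference of 0.24 from WT had an interval of -0.29 to 0.78. With sex fitted, which leaves the genotype difference to that array, it was 0.62 from Jak2VF and 0.75 from WT (limma, unadjusted p = 0.0434 and 0.0196, adjusted p = 1 and 0.754). Without that array it was -0.14 and -0.013. The other 5, Pax3 and Pax7 of the muscle lineage, Pax6 of the eye, Pax8 of the thyroid and Pax9 of pharyngeal pouches and teeth, differed from Jak2VF by -0.14 (Pax8) to 0.11 (Pax9). Against WT they ran from -0.19 (Pax3) to 0.033 (Pax6), with overlap between groups in each. The sine oculis family genes Six2, which maintains nephron progenitors, and Six3, of the forebrain and eye, differed from Jak2VF by -0.24 and 0.017 and from WT by -0.082 and -0.093.

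Nkx6-1, a homeodomain factor of pancreatic beta cells and motor neuron progenitors, read higher in both mutant genotypes than in WT, without passing the adjusted threshold. It read 4.46, 4.76 and 4.64 (WT), 4.87, 4.88 and 5.12 (Jak2VF), then 4.89, 4.98 and 4.97 (Jak2VF_Ezh2KO). All 6 arrays with the mutant Jak2 allele lay above the 3 WT arrays, while the mutant genotypes overlapped. The difference was 0.34 for Jak2VF against WT (unadjusted p = 0.0274, adjusted p = 0.924 in limma) and 0.33 for Jak2VF_Ezh2KO against WT (unadjusted p = 0.0315, adjusted p = 0.556). Between Jak2VF_Ezh2KO and Jak2VF it was -0.011, with an interval of -0.30 to 0.28. With sex fitted, Nkx6-1 in Jak2VF_Ezh2KO differed from WT by 0.35 (interval -0.10 to 0.80). Nkx2-1, of lung and thyroid, read 5.34, 5.41 and 5.13 (WT), 5.35, 5.25 and 5.58 (Jak2VF), then 5.25, 5.30 and 4.89 (Jak2VF_Ezh2KO), with the lowest value in Jak2VF_Ezh2KO replicate 3, and differed by -0.25 from Jak2VF, or -0.12 without that array and -0.50 with sex fitted. Nkx2-2, of the ventral neural tube and pancreas, and Nkx2-5, of the heart, differed by 0.052 and -0.021 from Jak2VF and by -0.033 and 0.046 from WT.

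None of the 4 T-box genes passed in any comparison. Tbx2 and Tbx3, repressors of heart and limb patterning, differed from Jak2VF by 0.093 and -0.13, Tbx5, of heart and forelimb, by -0.028, and Tbx15, of skeleton and adipose tissue, by -0.043. Against WT all 4 differences were negative, from -0.16 for Tbx3 to -0.012 for Tbx2, and 0 of 4 separated the groups.

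Among the forkhead genes, Foxa1 and Foxa2 open chromatin in endoderm, Foxc1 acts in mesenchyme and is used by marrow stroma, Foxd3 in neural crest and Foxf1 in visceral mesoderm. Foxa2 read 5.95, 5.84 and 5.87 (WT), 5.95, 5.78 and 6.21 (Jak2VF), then 5.95, 5.99 and 6.05 (Jak2VF_Ezh2KO). Foxd3 read 5.96, 5.91 and 5.97 (WT), 5.81, 5.78 and 6.11 (Jak2VF), then 5.94, 6.13 and 5.96 (Jak2VF_Ezh2KO). In both, the highest or second highest array was Jak2VF replicate 3, and the groups overlapped. Foxc1 read 4.56, 4.60 and 4.63 (WT), 4.86, 4.55 and 4.68 (Jak2VF), then 4.63, 4.63 and 4.89 (Jak2VF_Ezh2KO), with its highest values in 1 array of each mutant genotype and a difference of 0.12 from WT (adjusted p = 0.83). Foxa1 and Foxf1 differed from Jak2VF by -0.017 and 0.11 and from WT by -0.088 and -0.048.

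Lhx2, a LIM-homeodomain factor of forebrain, eye and hair follicle, came nearest to the pattern sought. It read 4.86, 4.83 and 4.79 (WT), 5.05, 4.96 and 4.96 (Jak2VF), then 5.24, 4.96 and 5.23 (Jak2VF_Ezh2KO). All 6 mutant arrays lay above the WT arrays, and 2 of the 3 Jak2VF_Ezh2KO arrays lay above all Jak2VF arrays, with replicate 2 at the level of the lower Jak2VF arrays. Group means were 4.83 ± 0.038 in WT, 4.99 ± 0.049 in Jak2VF and 5.14 ± 0.16 in Jak2VF_Ezh2KO (SD, n = 3). The difference was 0.32 from WT (interval 0.044 to 0.59, unadjusted p = 0.0271, limma adjusted p = 0.537) and 0.15 from Jak2VF (interval -0.12 to 0.42, adjusted p = 0.851). Against the average of both other genotypes it was 0.23 (limma, adjusted p = 0.578), the smallest adjusted p among the 51 genes there. With sex fitted, which leaves the genotype difference to Jak2VF_Ezh2KO replicate 3, Lhx2 differed from WT by 0.40 (interval -0.0098 to 0.81). Lhx9, of the gonad and limb, went the other way and read 4.66, 4.85 and 4.56 (WT), 5.10, 4.46 and 4.60 (Jak2VF), then 4.47, 4.46 and 4.54 (Jak2VF_Ezh2KO). Its Jak2VF_Ezh2KO arrays lay below all WT arrays and overlapped with Jak2VF, where replicate 1 was highest, and the differences were -0.20 from WT and -0.22 from Jak2VF, the latter -0.033 without that array. Isl1, of motor neurons and heart progenitors, had the widest spread of the group, as Jak2VF replicate 2 read 4.69 against 5.38 to 5.91 in the other arrays, and differed from Jak2VF by 0.19. The Iroquois genes Irx3 and Irx5, of neural tube and heart, differed from Jak2VF by -0.21 and -0.039 and from WT by -0.18 and 0.045. The other probe set of Irx3 gave -0.13 and 0.036.

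The promoter sequences of the 2 genes with an unadjusted p under 0.05 against WT are shown with that of Lhx9, the gene of the same family with the fewest CG dinucleotides of the 38 genes with a sequence. Each runs 5′ to 3′ from 250 bases before to 50 bases after the annotated start, in GRCm38.p6 from RefSeq, with CG dinucleotides in capitals.
Lhx2, chr2:38339031-38339330, plus strand: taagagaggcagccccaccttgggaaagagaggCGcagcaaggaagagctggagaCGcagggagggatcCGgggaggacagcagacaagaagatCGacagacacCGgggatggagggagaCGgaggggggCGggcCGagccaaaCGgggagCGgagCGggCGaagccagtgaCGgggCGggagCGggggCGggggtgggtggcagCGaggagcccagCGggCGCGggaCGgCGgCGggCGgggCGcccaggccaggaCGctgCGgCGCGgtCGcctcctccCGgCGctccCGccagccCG
Lhx9, chr1:138842395-138842694, minus strand: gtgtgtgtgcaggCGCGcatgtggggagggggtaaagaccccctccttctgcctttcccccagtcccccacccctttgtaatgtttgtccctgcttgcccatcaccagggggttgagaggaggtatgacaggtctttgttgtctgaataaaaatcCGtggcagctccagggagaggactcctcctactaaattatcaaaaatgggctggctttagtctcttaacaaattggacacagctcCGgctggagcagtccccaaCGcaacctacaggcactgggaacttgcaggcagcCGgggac
Nkx6-1, chr5:101664662-101664961, minus strand: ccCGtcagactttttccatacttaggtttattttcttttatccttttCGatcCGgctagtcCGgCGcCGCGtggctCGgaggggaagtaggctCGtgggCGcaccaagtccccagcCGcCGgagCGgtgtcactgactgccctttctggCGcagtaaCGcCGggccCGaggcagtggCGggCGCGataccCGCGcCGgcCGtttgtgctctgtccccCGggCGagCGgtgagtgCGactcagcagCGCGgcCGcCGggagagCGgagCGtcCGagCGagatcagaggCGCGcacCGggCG

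These windows held 34, 6 and 40 CG dinucleotides, or 0.89, 0.26 and 1.18 of the number expected from their content of C and G. A window was at hand for 38 of the 51 genes, and where a gene had several the one with most CG dinucleotides was taken, for members and other genes alike. Over the 38 genes the median was 23 CG dinucleotides per window and an observed-over-expected ratio of 0.80, against 15 and 0.61 over 16990 measured genes. A ratio of at least 0.6 with a GC content of at least 50% was found in 30 of 38, or 78.9%, against 48.4% of all measured genes and 1 of 1194 receptor genes. The letters TATAAA, read on both strands, occurred in 3 of 38 windows (7.89%) and in 12.5% of all. These shares describe the sequence, and no test was made. The genes were listed as Polycomb targets, whose start sites tend to be rich in CG dinucleotides. The shares are therefore not independent of the choice of genes. Of the genes with at least 34 CG dinucleotides, Lhx2 and Nkx6-1 had positive differences against WT. Sox1, Isl1 and Six2, with 37 each, had negative differences. Whether CG density bears on the differences was not tested.

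**Figure D3:**
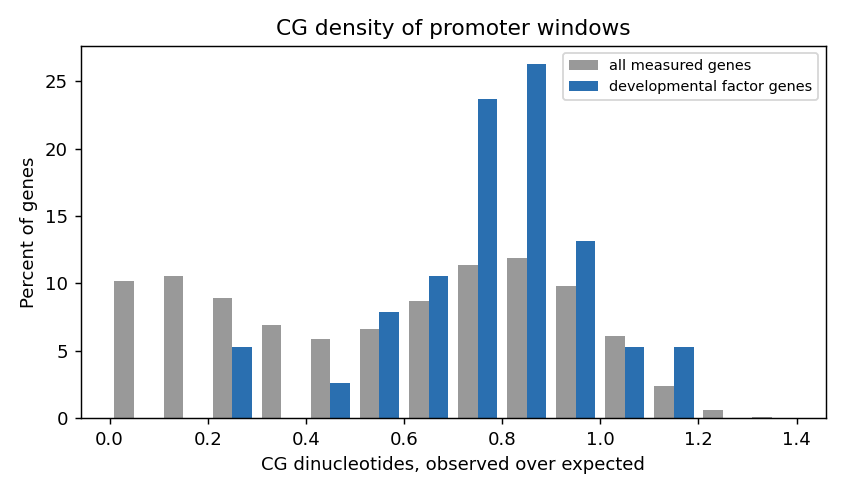
Percent of genes (vertical axis) by the ratio of observed to expected CG dinucleotides in the promoter window (horizontal axis, bins of 0.1), for 16990 measured genes in grey and 38 developmental factor genes in blue. The blue bars gather between 0.7 and 0.9 with few below 0.5, whereas the grey bars spread over low and high ratios.

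Of the DLX and MSX genes, Dlx2 and Dlx5 pattern forebrain, jaw and limb, and Msx2 acts in limb and skull. Dlx2 gave the brightest signal of the group and read 6.30, 6.15 and 6.39 (WT), 6.10, 6.33 and 6.33 (Jak2VF), then 6.33, 6.44 and 6.18 (Jak2VF_Ezh2KO). Dlx5 read 4.01, 3.94 and 3.95 (WT), 4.07, 3.97 and 4.31 (Jak2VF), then 3.98, 3.98 and 4.08 (Jak2VF_Ezh2KO). Msx2 read 4.44, 4.38 and 4.28 (WT), 4.23, 4.38 and 4.32 (Jak2VF), then 4.38, 4.55 and 4.39 (Jak2VF_Ezh2KO). All groups overlapped, and the largest difference from Jak2VF among the 3 was 0.13 for Msx2 (adjusted p = 0.868).

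Cdx2, the caudal homeodomain factor of trophoblast and intestine, had the largest difference from Jak2VF and rested on 1 array. It read 5.28, 4.98 and 5.26 (WT), 4.98, 5.27 and 5.25 (Jak2VF), then 5.27, 5.83 and 5.31 (Jak2VF_Ezh2KO). Jak2VF_Ezh2KO replicate 2 stood far above the rest, replicate 3 lay slightly above the highest WT array, and replicate 1 overlapped with Jak2VF and WT. The difference was 0.30 with a standard error of 0.18 (limma, adjusted p = 0.774), and without that array it was 0.12. Against WT it was 0.30, and 0.12 without the array. En1 and En2 are the Engrailed factors of the midbrain and hindbrain. En1 read 5.39, 5.11 and 5.01 (WT), 5.21, 5.14 and 5.21 (Jak2VF), then 5.35, 5.28 and 5.44 (Jak2VF_Ezh2KO), so that the 3 Jak2VF_Ezh2KO arrays lay above the 3 Jak2VF arrays but WT replicate 1 lay among the Jak2VF_Ezh2KO arrays. Its mean was 5.18 ± 0.04 in Jak2VF and 5.36 ± 0.081 in Jak2VF_Ezh2KO (SD, n = 3), a difference of 0.17 with an interval of -0.12 to 0.47 (limma, adjusted p = 0.839). En2 read 4.68, 4.53 and 4.41 (WT), 4.48, 4.53 and 4.34 (Jak2VF), then 4.59, 4.64 and 4.53 (Jak2VF_Ezh2KO) and differed by 0.14 from Jak2VF with overlap. Gbx2, which sets the border of the hindbrain, read 6.52, 6.35 and 5.60 (WT), 5.75, 6.14 and 6.54 (Jak2VF), then 5.84, 5.98 and 6.11 (Jak2VF_Ezh2KO), a spread within WT and Jak2VF wider than any difference between groups. The probe sets of Gbx2 disagreed, since this one differed from WT by -0.18 and the other by 0.43 (unadjusted p = 0.0248), and from Jak2VF by -0.17 and 0.16. The remaining genes Gsc and Evx1, of gastrulation and primitive streak, Otx2, of the forebrain, and Barhl1, of cerebellum and inner ear, differed from Jak2VF by 0.16, 0.14, -0.085 and -0.11, and from WT by 0.037, 0.0097, -0.055 and -0.029.

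Of the 5 basic helix-loop-helix genes 0 passed, and 1 of 5 differences was positive in each comparison, where 41.8% of all genes were positive against Jak2VF and 46.5% against WT. Neurog1 and Neurog2 commit neural progenitors to neurons, Neurod1 acts downstream of them and in pancreatic islets, Olig2 specifies motor neurons and oligodendrocytes, and Twist1 is a factor of mesoderm and neural crest. Neurod1 read 4.38, 4.34 and 4.48 (WT), 4.10, 4.24 and 4.28 (Jak2VF), then 3.79, 4.28 and 4.24 (Jak2VF_Ezh2KO). Its Jak2VF and Jak2VF_Ezh2KO arrays all lay below the WT arrays, with differences from WT of -0.20 and -0.30 (adjusted p = 0.924 and 0.621). The latter was -0.14 without Jak2VF_Ezh2KO replicate 1. Neurog1 read 4.92, 5.02 and 4.88 (WT), 4.70, 4.84 and 5.38 (Jak2VF), then 4.75, 4.79 and 4.65 (Jak2VF_Ezh2KO). Its Jak2VF_Ezh2KO arrays differed from WT by -0.21 without overlap, and the difference of -0.24 from Jak2VF was -0.040 without Jak2VF replicate 3, a single high array. Neurog2 read 6.35, 6.19 and 6.53 (WT), 6.36, 6.10 and 6.21 (Jak2VF), then 5.83, 6.39 and 6.15 (Jak2VF_Ezh2KO), with overlap between groups, and its difference of -0.23 from WT was -0.088 without Jak2VF_Ezh2KO replicate 1, the lowest array. Olig2 differed by -0.11 from Jak2VF and -0.18 from WT, and Twist1 by 0.012 and 0.11.

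Gata6 had the smallest unadjusted p among the 51 genes in the comparison with Jak2VF, on the lower side. It is a zinc-finger factor of endoderm and heart, as is Gata4. Gata6 read 4.581, 4.599 and 4.599 (WT), 4.599, 4.996 and 4.996 (Jak2VF), then 4.476, 4.736 and 4.559 (Jak2VF_Ezh2KO). Jak2VF replicates 2 and 3 stood above the other 7 arrays, and Jak2VF_Ezh2KO and WT lay at the same level, so that the difference was -0.27 from Jak2VF (unadjusted p = 0.0865, limma adjusted p = 0.745) and -0.0028 from WT. Gata4 read 5.43, 5.62 and 5.38 (WT), 5.34, 5.19 and 5.42 (Jak2VF), then 5.23, 5.58 and 5.18 (Jak2VF_Ezh2KO), with groups overlapping and differences of 0.015 and -0.15. Wt1, of kidney and gonad and also known from leukaemia, differed by -0.084 from Jak2VF and -0.15 from WT, and Zic1, of dorsal neural tube, by 0.091 and 0.016.

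**Figure D4:**
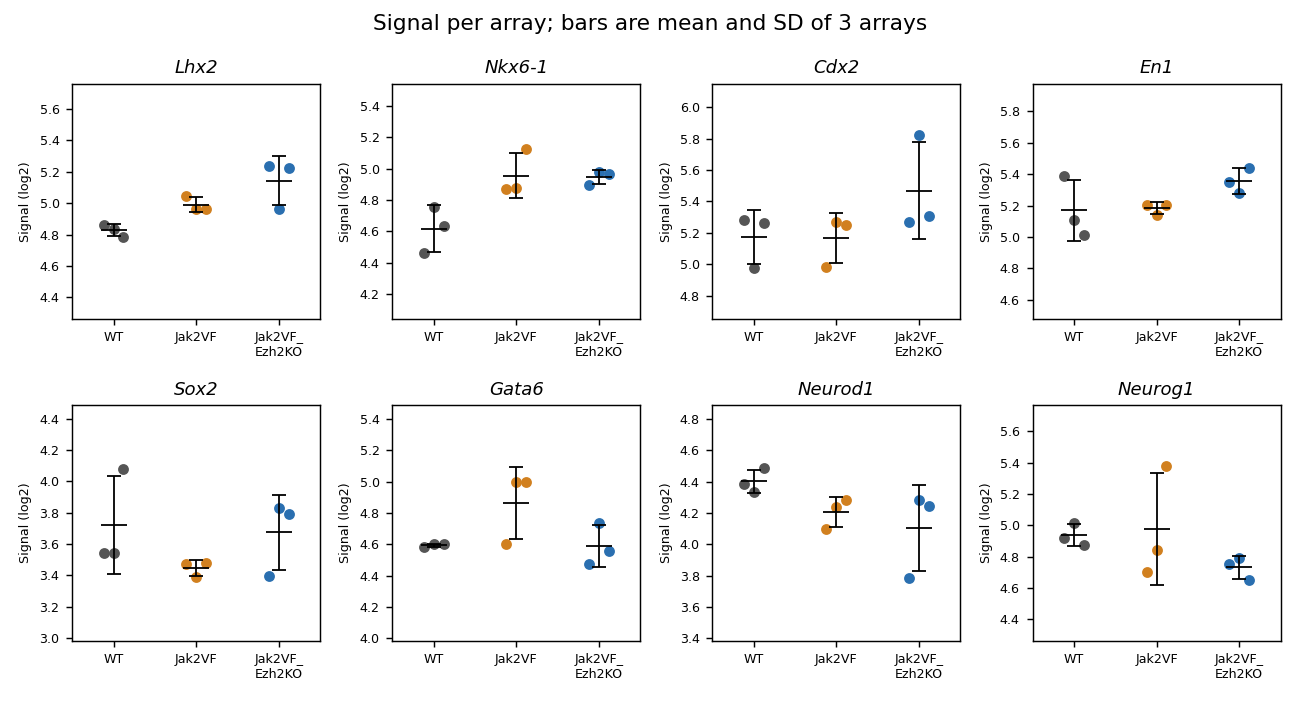
Signal (log2, vertical axis, the same span of 1.5 in each panel) of 8 genes in each array, by genotype, with the mean and SD of 3 arrays as bars. Lhx2 and Nkx6-1 lie above WT in both mutant genotypes, the highest Cdx2 value is 1 Jak2VF_Ezh2KO array, and Gata6 is high in 2 Jak2VF arrays.

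Between Jak2VF and WT, 0 of 51 genes passed (limma, and 0 with ordinary least squares, with 0% of all genes passing), and Nkx6-1 was the 1 gene higher at an unadjusted p under 0.05 against 2.85% of all genes, while 0 of 51 were lower, against 1.81%. Among the 7394 genes with the lowest means, 1% were higher at that threshold, against 3.7% of the 27 members there, which is Nkx6-1 alone. Differences over 0.5 or under -0.5 numbered 0 of 51, against 2.11% and 2.34% of all genes. In the order of p, Gata6 and Lhx2 followed on the higher side, at 0.27 and 0.16, and Sox2, Neurod1 and Gata4 on the lower side, at -0.27, -0.20 and -0.16. The Jak2VF arrays lay above all WT arrays for 3 genes, Nkx6-1, Lhx2 and Irx5, and below them for Sox2 and Neurod1, where 3.54% and 2.57% of all genes did so. The differences ran from -0.30 for Isl1 to 0.34 for Nkx6-1, with a median of -0.015 against 0.027 for all genes.

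The average level of the 51 genes varied between arrays of 1 genotype. Relative to the WT means, the 51 genes averaged 0.13 in the third Jak2VF array and 0.087 in the first WT array, and between -0.10 and 0.039 in the other 7 arrays. Jak2VF replicate 3 held the highest value of 16 genes (31.4%, against 16.6% of all genes), and WT replicate 1 that of 12 (23.5% against 14.6%). The 3 Jak2VF_Ezh2KO arrays together held the highest value of 12 genes. By array these were 3.92%, 11.8% and 7.84% of the 51, against 5.6%, 10.9% and 9.32% of all genes. The mean over all genes relative to WT was also highest in Jak2VF replicate 3, at 0.046. Without that array the median difference of Jak2VF_Ezh2KO from Jak2VF turned from -0.017 to 0.049, with 30 of 51 positive, and 0 of 51 genes passed.

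**Figure D5:**
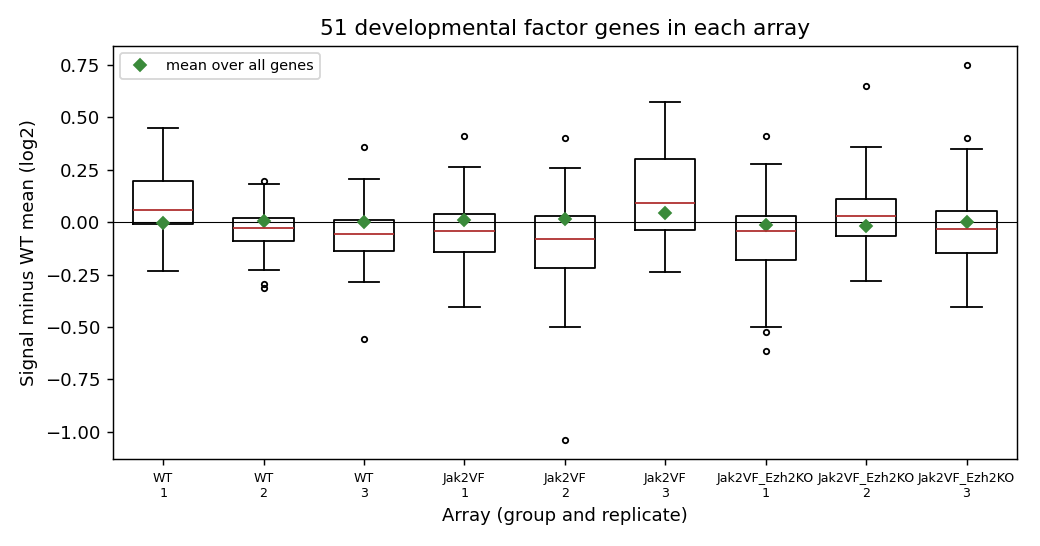
Signal of the 51 genes minus each gene's WT mean (log2, vertical axis) in each of the 9 arrays, as boxes of the quartiles with the median as a red line, whiskers over the bulk of the rest and outlying genes as circles. The green diamonds give the mean over all genes, and the box of Jak2VF replicate 3 is the highest.

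Further lists of developmental and Polycomb genes were set beside these genes. Of 87 further developmental transcription factors, such as Tbx18, Hand2 and Zic5, 0 passed in Jak2VF_Ezh2KO against Jak2VF (limma), 0 had an unadjusted p under 0.05, and the median difference was -0.031. The smallest unadjusted p values there were those of Uncx at 0.28, Rax at -0.31, Tbx18 at -0.21 and Sox17 at -0.24. Of 24 developmental signalling genes 0 passed, and 2 were higher at an unadjusted p under 0.05, namely the ligand gene Shh, at 0.74, and Sfrp2, which encodes a secreted Wnt modulator, at 0.79 (adjusted p = 0.591 and 0.707). These were 8.33% of the list, against 2.91% of all genes. Against WT, 0 of 24 were higher at that threshold, against 4.54% of all genes. Bmp2 and Bmp4, at 0.27 and 0.25, lay above Jak2VF in all 3 arrays. Such separation was found for 12.5% of the list against Jak2VF and 4.17% against WT. Over all genes the shares were 4.18% and 6.28%. Among 14 genes of Polycomb repressive complex 2 and its demethylases, Ezh2, the demethylase gene Kdm6a (-0.56) and the accessory subunit gene Mtf2 (-0.39) were lower at an unadjusted p under 0.05, and 0 passed. These were 21.4% of the list, against 3.99% of all genes. Kdm6a, an X-linked gene, read 8.20, 8.32 and 8.10 (WT), 8.10, 8.31 and 8.10 (Jak2VF), then 7.55, 7.26 and 8.02 (Jak2VF_Ezh2KO), so that its low values were in the same 2 arrays as the Y-linked signal. With sex fitted, Kdm6a differed by -0.15, Ezh2 by -0.49 and Mtf2 by -0.22. Rbbp4 differed by -0.32, and Ezh1, the other catalytic subunit, by 0.12. Of 16 genes of Polycomb repressive complex 1, 0 passed, with Bmi1 at 0.52, Cbx7 at 0.28, Pcgf1 at 0.36 and Cbx8 at -0.22. Of 20 stem cell transcription factors, Fli1, Etv6, Erg and Meis1 were lower at an unadjusted p under 0.05, from -0.59 to -0.37, and 0 passed. These were 20% of the list, against 3.99% of all genes, and 10 of the 20 differences were positive.

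Several of the developmental factors are used by marrow stroma, and stroma and endothelium markers were set beside them. Of 12 such markers, 5 had positive and 7 negative differences from Jak2VF, with a median of -0.021, and 0 passed. Col1a2, a collagen gene, differed by 0.89 (adjusted p = 0.645). Of the markers of other blood lineages, the mast cell protease gene Cma1 passed against Jak2VF and against WT, with a rise of 1.63 and 1.67 (limma, adjusted p = 0.0441 and 0.0459). Differences of Jak2VF_Ezh2KO from Jak2VF were positive for 4 of 6 mast cell, 6 of 8 T and NK cell, 5 of 7 neutrophil, 4 of 4 erythroid and 4 of 6 B cell markers. Counts at an unadjusted p under 0.05 (limma) were 3 higher of 6 for mast cells and 4 higher and 1 lower of 8 for T and NK cells. They were 2 higher of 7 for neutrophils, 2 higher of 4 for erythroid cells and 0 of 6 for B cells. Over all genes 2.91% were higher and 3.99% lower. The median signal of the stroma and endothelium markers in single arrays ran from 5.50 to 5.61 in WT, 5.23 to 5.53 in Jak2VF and 5.29 to 5.74 in Jak2VF_Ezh2KO. The median signal of the mast cell markers in single arrays ran from 4.36 to 4.81 in WT, 4.73 to 5.32 in Jak2VF and 5.05 to 5.75 in Jak2VF_Ezh2KO. The median signal of the T and NK cell markers in single arrays ran from 4.98 to 5.16 in WT, 4.86 to 5.33 in Jak2VF and 6.15 to 6.57 in Jak2VF_Ezh2KO. The median signal of the erythroid markers in single arrays ran from 6.49 to 7.36 in WT, 6.29 to 7.35 in Jak2VF and 7.45 to 7.78 in Jak2VF_Ezh2KO. The T and NK cell and the erythroid medians of all 3 Jak2VF_Ezh2KO arrays lay above those of the other 6. Single T and NK cell markers did so in 3 of 8 and erythroid markers in 0 of 4, against 2.15% of all genes. The neutrophil medians ran from 5.13 to 6.33 in WT, 4.65 to 5.72 in Jak2VF and 5.66 to 6.84 in Jak2VF_Ezh2KO. The B cell medians ran from 5.30 to 5.42, 5.31 to 5.46 and 5.19 to 6.51 in the same order. Both overlapped between genotypes. The part of such cells in the values of the developmental factors was not tested.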

How the data were processed

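Gene expression was measured on mouse arrays with biotin as the only label, 1 array per sample. Per the labels' protocols, RNA was amplified with a NuGEN Ovation Pico WTA kit. The authors deposited log2 values for 41345 probe sets. Per the submitters' processing notes the tool was Partek 6.6, with its background correction, normalization and build left unstated in the sources used here. The values were fitted as deposited.

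Of the probe sets, 23521 had 1 symbol in the platform annotation, 1814 several and 16010 none, which left 22180 genes. Genes were fitted with limma 3.58.1 in R 4.3.3 (lmFit, eBayes, all 9 arrays, 6 residual degrees of freedom) and called at a Benjamini-Hochberg adjusted p under 0.05 over all genes. Differences are in log2 units, and intervals are those of the moderated fit. The number of arrays limits the precision. The fit was tested on simulated data with independent noise, without a sex difference or equal values between arrays. That test does not show how small a rise would be called in these arrays. The genes, lists and alternatives were chosen with earlier results of these data known.

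Genes given with every array are, for Jak2VF_Ezh2KO against Jak2VF and against WT, the 6 with the smallest p on the higher and the 4 on the lower side. To these were added genes above all 6 other arrays, the 6 with the highest and the 3 with the lowest mean, and, for Jak2VF against WT, 3 on each side, here given by their difference. Of other lists, the 4 with the smallest p and any gene that passed were named. Bmp2 and Bmp4 are among those 4. Context genes were matched by symbol. Alternatives are listed in the closing section.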

Additional observations from a re-analysis of the deposited data

How the results depend on the processing

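Called genes among the 51 numbered 0 in each of the 4 comparisons under every alternative run: ordinary least squares, robust variance with an intensity trend, quantile normalization, median centring, array weights, a sex covariate, a receptor-signal covariate, every probe set tested, a gene's probe sets averaged, the dimmer genes left out, the groups of a comparison alone (not for the average of both, which uses all groups), the replicate number as a block, without both arrays with Y-linked signal, each array left out and an adjusted threshold of 0.1. The smallest adjusted p over these was 0.521 for Jak2VF_Ezh2KO against Jak2VF and 0.284 against WT. With every probe set tested, each of the 51 genes was still counted by its brightest probe set alone. Over all genes the main counts of 10, 5, 0 and 12 ran from 0 to 19 against Jak2VF, 0 to 14 against WT, 0 for Jak2VF against WT and 0 to 35 against the average of both, at the threshold of 0.05. Where 0 of all genes passed, as with ordinary least squares, the 0 of 51 was fixed.

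The median difference from Jak2VF of -0.017 ran from -0.057 without Jak2VF replicate 2 to 0.049 without Jak2VF replicate 3. The median from WT of -0.030 ran from -0.050 without Jak2VF_Ezh2KO replicate 2 to 0.032 without WT replicate 1, and was 0.035 over the 10 genes kept with the dimmer genes left out, where fewer genes enter. Of 2025 values of the 23 named genes under alternatives, 1935 kept their sign and 0 passed. With the replicate number as a block the medians stayed at -0.017 and -0.030 and 0 genes passed. Deviations of arrays with the same number correlated at -0.23 to 0.48, against -0.50 to 0.33 for other numbers, so not every pair exceeded 0.1 and the number was not taken to pair the mice. Most members lay below the 95th percentile of the receptor genes' signal, and whether this bears on the outcome was not tested.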

Other observations

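The deposited values of the developmental factors repeat between arrays. In 36 of the 51 genes (70.6%) at least 2 of the 9 arrays carried exactly the same value, against 46.5% of all genes. Sox11 read 4.63 and Tbx5 read 4.86 in 5 arrays each, and Six3 read 5.55 and Pax9 read 5.12 in 4 arrays each. Equal values make the spread within a group small, as for Gata6 in WT, with 4.59 ± 0.01 (SD, n = 3). Whether this comes from the way probes were summarised was not tested.

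Among the further developmental transcription factors, 1 differed by more than 0.5 from WT, and it was chosen after its values were seen. Twist2, a mesenchymal relative of Twist1, read 4.64, 4.17 and 3.74 (WT), 4.24, 5.54 and 5.08 (Jak2VF), then 4.43, 4.64 and 5.22 (Jak2VF_Ezh2KO). Its spread within groups was as wide as its differences of 0.77 for Jak2VF and 0.58 for Jak2VF_Ezh2KO against WT, and neither passed (limma, adjusted p = 0.924 and 0.675).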
